A study of Homo sapiens with 4 samples.

Results

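The RAL GTPases RALA and RALB and 7 genes that regulate or read them were followed in pancreatic cancer cells given a microRNA mimic. The 9 genes were chosen by symbol: the GTPases RALA and RALB, the exchange factors RALGDS, RGL1 and RGL2, the RALGAP subunits RALGAPA1 and RALGAPB, and the exocyst subunits EXOC2 and EXOC8. All 9 were present among the 26255 gene symbols of the expression tables. PSN-1 and MIA PaCa-2, 2 established human lines derived from pancreatic tumours, were each transfected with a synthetic mimic of miR-4800-3p or with a scrambled negative control oligonucleotide, in order to look for messenger RNAs targeted by this microRNA. Polyadenylated RNA was sequenced from 1 library of each of the 4 groups: PSN-1 with mimic, PSN-1 with scramble, MIA PaCa-2 with mimic and MIA PaCa-2 with scramble. The labels give no dose, no time after transfection and no replicate culture, so a value below has no replicate within its line, and the second line is the only repeat of the treatment.

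RAL proteins are small GTPases that cycle between an inactive GDP-bound and an active GTP-bound state. Active RAS recruits exchange factors of the RALGDS family, which load RAL with GTP, and RALGAP complexes, made of a catalytic alpha and a shared beta subunit, return it to the inactive state. Active RAL binds the exocyst, which tethers secretory vesicles to the plasma membrane, through EXOC2 (SEC5) and EXOC8 (EXO84). In RAS-driven pancreatic cancer cells RALA is known for its part in anchorage-independent growth and RALB for its part in invasion and survival signalling.

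Of the 9 genes, RALB alone carries a perfect match to bases 2 to 8 of miR-4800-3p in its longest annotated 3′ UTR, so the microRNA and this site are shown. Capitals mark the seed in the microRNA, from RefSeq (GRCh38.p14, chromosome 4, 2250091 to 2250109, minus strand), and the matching bases in the RALB transcript, from GENCODE 29 (GRCh38), both 5′ to 3′.
hsa-miR-4800-3p: cAUCCGUCcgucuguccac
RALB 3′ UTR: gtgtcaaggtGACGGATgaagccagctgct
The RALB site lies on the plus strand of chromosome 2 from 120293271 to 120293277 (GRCh38), at bases 11 to 17 of the 3′ UTR. It is present in both annotated coding transcripts that have a stop codon followed by a 3′ UTR, and these 3′ UTRs are 405 and 1453 bases long. Aligned without gaps, 8 of 8 microRNA positions from base 1 to base 8 form Watson-Crick pairs with the site, against 3 of 11 from base 9 to base 19, with 1 further G:U pair. The motifs GACGGAT or ACGGATA were found on the sense strand in the longest 3′ UTR of 403 of 19120 protein-coding genes (2.11%), and in 10 of these 403 the match starts within the first 15 bases, as in RALB. RALA and the other 7 genes had neither motif, nor the shorter ACGGAT (present in 5.24% of genes), in the longest 3′ UTR. A match describes sequence, and its use in these cells was not measured.

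RALB (chromosome 2, 120240064 to 120294713, plus strand, GRCh38) was the member with the lowest change in both lines. Its level was 13.4 FPKM (fragments scaled to transcript length and library size) with the mimic and 24.6 FPKM with the scramble in PSN-1, and 29.3 FPKM with the mimic and 48.8 FPKM with the scramble in MIA PaCa-2. The mimic library was thus at 54.4% of the scramble library in PSN-1 and at 60.2% in MIA PaCa-2. On the scale of log2(FPKM + 1), which understates changes of low genes, the RALB change was -0.83 in PSN-1 and -0.71 in MIA PaCa-2. RALB rested on an estimated 224 fragments in the PSN-1 mimic library, its smallest count, and 652 in the MIA PaCa-2 scramble library, its largest. The 95% counting intervals of the plain log2 ratio ran from -1.12 to -0.63 in PSN-1 and from -0.91 to -0.56 in MIA PaCa-2. These intervals cover counting error only and leave out differences between cultures.

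RALB stood near the low end of all genes averaging 1 FPKM or more in a line, ranking 164 from the lowest of 12233 in PSN-1 and 265 of 11484 in MIA PaCa-2. Among the 9 members, RALB and RALGDS were lower past 1.5-fold in PSN-1, where 3.87% of all genes were, and RALB alone in MIA PaCa-2, where 4.06% were. No member was higher past 1.5-fold in PSN-1 or MIA PaCa-2 (all genes 3.17% and 5.43%). RALB was lower past 1.5-fold in both lines, as were 0.609% of 10678 genes measured in both, and no member was higher in both (0.749% of genes). At any size, 4 of 9 members were higher in PSN-1 (47.6% of all genes) and 5 of 8 in MIA PaCa-2 (52.2%). Over the members measured, the median change was -0.026 in PSN-1 (9 genes) and 0.13 in MIA PaCa-2 (8 genes, without RGL1), beside medians of -0.016 and 0.014 over all genes.

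A mimic effect common to PSN-1 and MIA PaCa-2 was estimated over all genes in limma, blocking on cell line, which leaves 1 degree of freedom. RALB had a mean log2 change of -0.77 (SE 0.13), lower in 2 of 2 lines, and was not called (unadjusted p = 0.00125, adjusted p = 0.174 in limma, rank 76 of 10678 by p). RALGDS followed at -0.49 (SE 0.15, adjusted p = 0.400 in limma). None of the 8 members in the fit was called, where limma called 0.00937% of genes lower and 0.0562% higher, with 526 lower and 534 higher at an unadjusted p under 0.05.

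**Figure D1:**
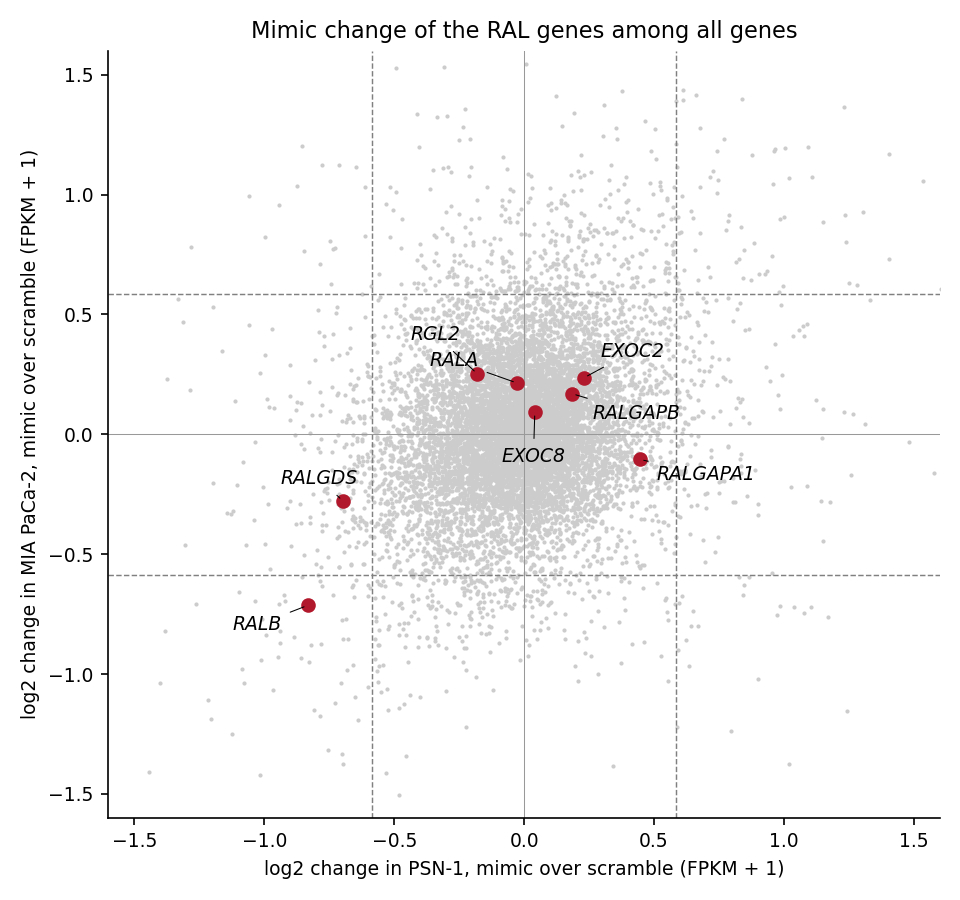
Log2 change of FPKM + 1, mimic over scramble, in PSN-1 (horizontal) and MIA PaCa-2 (vertical) for genes averaging 1 FPKM or more in both lines, with 8 RAL genes in red, all 10678 genes in grey and dashed lines at 1.5-fold. RALB lies past the lines in the lower left corner, RALGDS past the line in PSN-1 only, and RGL1 is not shown because it was under 1 FPKM in MIA PaCa-2; 62 genes lie outside the axes.

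RALA, the paralogue of RALB (chromosome 7, 39623483 to 39708124, plus strand, GRCh38), was not lower past 1.5-fold in either line. It was at 19.3 FPKM with the mimic and 19.7 FPKM with the scramble in PSN-1, and at 25.2 FPKM with the mimic and 21.6 FPKM with the scramble in MIA PaCa-2. Its log2 changes were -0.026 and 0.21, and the PSN-1 counting interval of -0.17 to 0.12 included 0 and that of MIA PaCa-2 did not (0.084 to 0.36). The coding sequences of RALA and RALB, 618 bases each, were identical at 459 bases (74.3%) and the longest run shared by their principal transcripts was 13 bases.

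The balance between the RAL genes differed between the libraries. RALB made up 40.9% of the summed RALA and RALB level in the PSN-1 mimic library and 55.5% in the PSN-1 scramble library, and 53.8% in the MIA PaCa-2 mimic library and 69.3% in the MIA PaCa-2 scramble library. RALB thus exceeded RALA in 3 of the 4 libraries, and RALA exceeded RALB in the PSN-1 mimic library. The ratio of RALB to RALA was 0.692 with the mimic and 1.25 with the scramble in PSN-1, and 1.17 with the mimic and 2.26 with the scramble in MIA PaCa-2. The log2 ratio of FPKM + 1 differed between mimic and scramble by -0.81 in PSN-1 and by -0.93 in MIA PaCa-2. The plain log2 ratio differed by -0.85 in PSN-1 (counting SE 0.15) and by -0.96 in MIA PaCa-2 (counting SE 0.11). An exact permutation over the 2 pairs of libraries cannot give a two-sided p below 0.5, and no other test of the ratio was run. The summed level of both genes was 32.6 FPKM with the mimic and 44.2 FPKM with the scramble in PSN-1, and 54.5 FPKM with the mimic and 70.3 FPKM with the scramble in MIA PaCa-2.

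**Figure D2:**
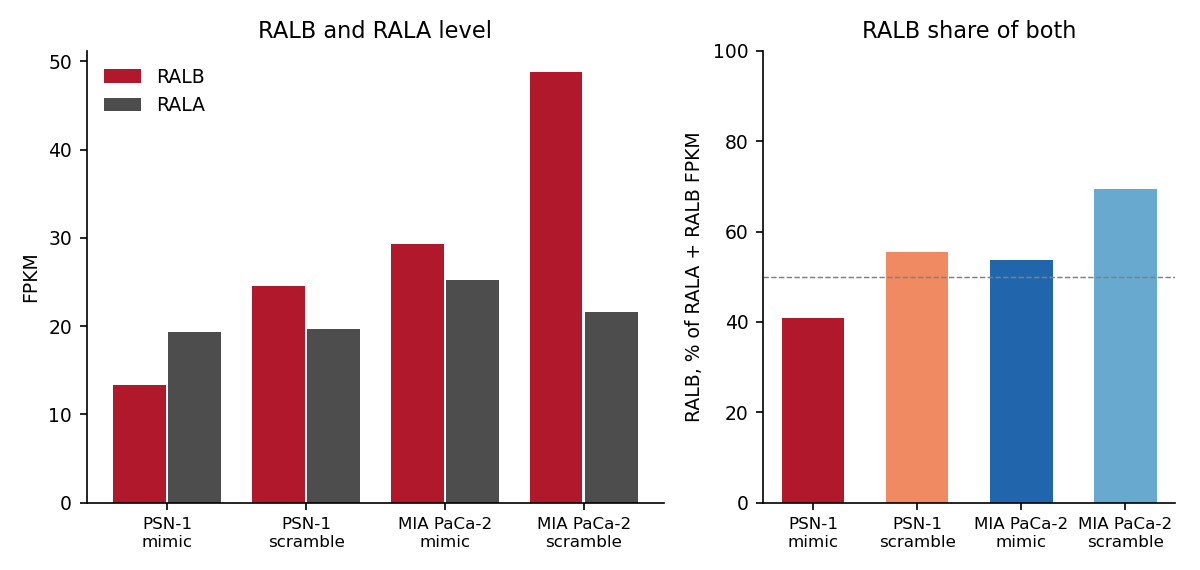
Left, FPKM of RALB (red) and RALA (grey) in each of the 4 libraries; right, RALB as a percentage of the summed FPKM of both genes, with a dashed line at equal levels. RALB is lower with the mimic in both lines while RALA differs less, and only the PSN-1 mimic bar (40.9%) lies under the dashed line.

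Among the exchange factors, RALGDS (chromosome 9, 133097720 to 133149334, minus strand), which carries the RAS signal to RAL, was lower with the mimic in both lines, to a different extent. It was at 46.0 FPKM with the mimic and 75.2 FPKM with the scramble in PSN-1 (log2 change -0.70), and at 24.1 FPKM with the mimic and 29.4 FPKM with the scramble in MIA PaCa-2 (-0.28). The longest 3′ UTR of RALGDS is 56.2% G or C, against 33.9% to 49.1% in the other 8 members. After subtracting the median of genes with a similar 3′ UTR G and C share, an alternative added once the data had been seen, RALGDS was at -0.61 in PSN-1. This shift exceeded its counting error and left RALGDS only slightly past 1.5-fold (0.585 in log2). The cause of the RALGDS change was not tested. GENCODE 29 annotates another coding gene, AL162417.1, on the same strand over 3028 exon bases of RALGDS, and reads there cannot be told apart.

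RGL1 (chromosome 1, 183636085 to 183928531, plus strand), a relative of RALGDS, was detected mainly in PSN-1. It was at 8.79 FPKM with the mimic and 10.8 FPKM with the scramble in PSN-1 (log2 change -0.27), and at 0.438 FPKM with the mimic and 0.395 FPKM with the scramble in MIA PaCa-2, too low there for a change to be read. RGL2 (chromosome 6, 33291654 to 33299324, minus strand), another relative, was at 15.4 FPKM with the mimic and 17.5 FPKM with the scramble in PSN-1 (-0.18), and at 16.3 FPKM with the mimic and 13.5 FPKM with the scramble in MIA PaCa-2 (0.25). Exons of RGL2 overlap PFDN6 on the opposite strand over 724 bases, and PFDN6 had log2 changes of -0.37 and -0.41 in PSN-1 and MIA PaCa-2. The strand setting of the counting is not given in the sources used here, so RGL2 is uncertain to that extent. Summed over the 7 known RAL exchange factor genes (RALGDS, RGL1, RGL2, RGL3, RGL4, RALGPS1 and RALGPS2), the level was 89.8 FPKM with the mimic and 126 FPKM with the scramble in PSN-1, and 52.2 FPKM with the mimic and 56.0 FPKM with the scramble in MIA PaCa-2. RALGDS held 51.2% of that sum with the mimic and 59.8% with the scramble in PSN-1, and 46.1% with the mimic and 52.5% with the scramble in MIA PaCa-2.

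Neither RALGAP subunit passed 1.5-fold. RALGAPB (chromosome 20, 38472816 to 38578861, plus strand), the beta subunit shared by both RALGAP complexes, was at 24.3 FPKM with the mimic and 21.3 FPKM with the scramble in PSN-1 (log2 change 0.18), and at 21.95 FPKM with the mimic and 19.4 FPKM with the scramble in MIA PaCa-2 (0.17). RALGAPA1 (chromosome 14, 35538352 to 35809304, minus strand), a catalytic alpha subunit, was at 12.6 FPKM with the mimic and 8.98 FPKM with the scramble in PSN-1 (0.44), and at 16.7 FPKM with the mimic and 18.02 FPKM with the scramble in MIA PaCa-2 (-0.10). Its PSN-1 change was the highest of the 9 members, above 94.1% of all genes there and under 1.5-fold. The related pseudogene RALGAPA1P, whose reads could be exchanged with RALGAPA1, had at most 2.45 FPKM in any library. It was at 1.52 FPKM with the mimic and 2.45 FPKM with the scramble in PSN-1 (log2 change -0.45). In MIA PaCa-2 it was at 1.02 FPKM with the mimic and 0.000405 FPKM with the scramble (1.02). These changes were opposite in sign to those of RALGAPA1 in both lines, and exchange of reads was not tested. The ratio of RALGDS to RALGAPB was 1.89 with the mimic and 3.53 with the scramble in PSN-1, and 1.10 with the mimic and 1.51 with the scramble in MIA PaCa-2.

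Neither exocyst subunit that binds active RAL passed 1.5-fold in either line. EXOC2 (chromosome 6, 485133 to 693111, minus strand) was at 12.2 FPKM with the mimic and 10.3 FPKM with the scramble in PSN-1, and at 15.2 FPKM with the mimic and 12.7 FPKM with the scramble in MIA PaCa-2, which gave log2 changes of 0.23 and 0.24. EXOC8 (chromosome 1, 231332753 to 231337852, minus strand) was at 9.46 FPKM with the mimic and 9.16 FPKM with the scramble in PSN-1, and at 3.33 FPKM with the mimic and 3.06 FPKM with the scramble in MIA PaCa-2. Its log2 changes of 0.041 and 0.094 lay within counting error in both lines. Exons of EXOC8 overlap SPRTN on the opposite strand over 749 bases, and SPRTN had log2 changes of -0.051 and -0.024. In limma, adjusted p was 0.678 for EXOC2 and 0.938 for EXOC8.

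**Figure D3:**
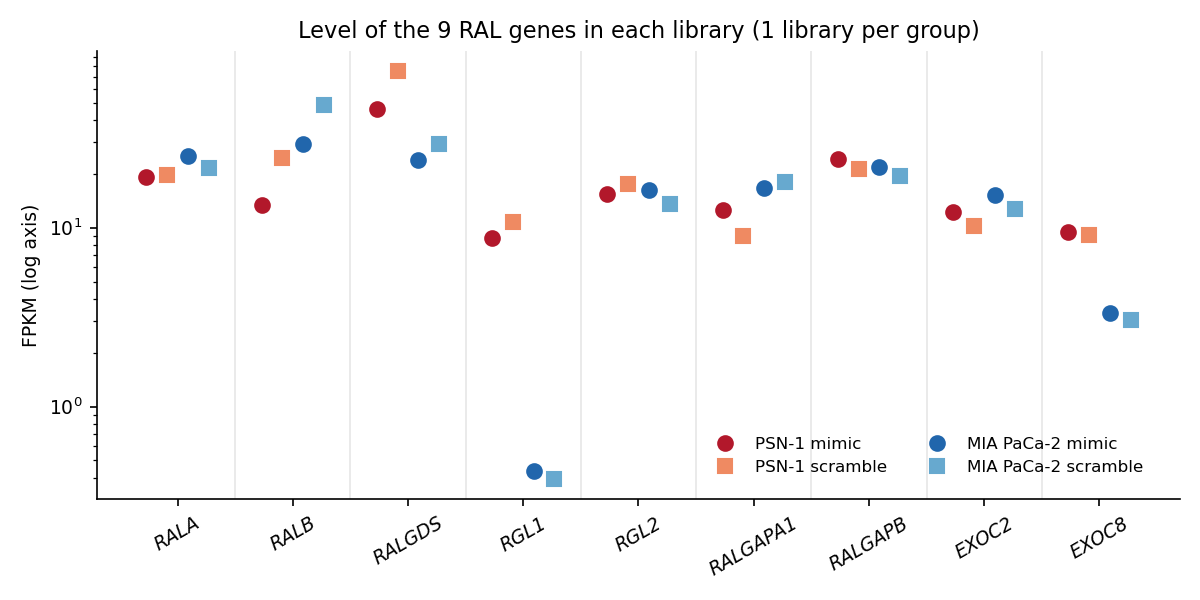
FPKM of the 9 RAL genes on a log axis in each of the 4 libraries, circles for mimic and squares for scramble. RALB is lower in the circle than in the square of both lines, RGL1 lies below 1 FPKM in MIA PaCa-2, and EXOC8 is lower in MIA PaCa-2 than in PSN-1.

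The order of the levels, which FPKM makes comparable between genes per length, was set by RALGDS in PSN-1 and by RALB in MIA PaCa-2. In PSN-1 RALGDS had the highest mean over the mimic and scramble libraries (60.6 FPKM), followed by RALGAPB (22.8), RALA (19.5), RALB (19.0), RGL2 (16.4), EXOC2 (11.3), RALGAPA1 (10.8), RGL1 (9.80) and EXOC8 (9.31 FPKM). The ranges of the libraries of that line overlapped between RALA and RALB, between RALB and RGL2, and between each neighbour from EXOC2 down to EXOC8, so these neighbours are not ordered beyond their spread. In MIA PaCa-2 RALB had the highest mean (39.1 FPKM), followed by RALGDS (26.7), RALA (23.4), RALGAPB (20.7), RALGAPA1 (17.4), RGL2 (14.9), EXOC2 (14.0), EXOC8 (3.19) and RGL1 (0.416 FPKM). The upper 4 of these overlapped each with the next, as did RGL2 and EXOC2, whereas RALGAPB, RALGAPA1, EXOC2 and EXOC8 each stood clear of the gene below. Such a range spans the mimic and scramble libraries and not replicates. In PSN-1 the range of RALB also covered that of RALGAPB. There RALB exceeded RALGAPB in the scramble library (24.6 against 21.3 FPKM), and RALGAPB exceeded RALB in the mimic library (24.3 against 13.4 FPKM). Within each MIA PaCa-2 library RALB exceeded RALGDS, RALA exceeded RALGAPB and RGL2 exceeded EXOC2, while RALGDS and RALA changed order.

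Between the lines, RGL1, EXOC8 and RALGDS were higher in PSN-1, and RALB and RALGAPA1 were lower. A separate limma fit over 12423 genes, with the oligonucleotide as a block, gave the PSN-1 minus MIA PaCa-2 difference from 2 libraries of each line. These are 1 mimic and 1 scramble library and not replicates, and the fit leaves 1 degree of freedom. Its p-values therefore do not measure differences between cultures of a line. Genes entered this fit with a mean of 1 FPKM or more over the 4 libraries. RGL1 was at a mean of 9.80 FPKM in PSN-1 and 0.416 FPKM in MIA PaCa-2, a ratio of 23.5 (log2 difference of FPKM + 1, 2.92, SE 0.19). RGL1 was called, but it passed the filter only through PSN-1, where it is high, so the call adds no support. EXOC8 was 2.92 times as high in PSN-1 (log2 difference 1.30, SE 0.16, adjusted p = 0.00213 in limma), and RALGDS was 2.27 times as high (1.12, SE 0.15, adjusted p = 0.00289 in limma). RALB in PSN-1 was at 0.485 of its MIA PaCa-2 level (-1.02, SE 0.13, adjusted p = 0.00233 in limma), with 13.4 and 24.6 FPKM in PSN-1 against 29.3 and 48.8 FPKM in MIA PaCa-2, and RALGAPA1 was at 0.621 (-0.66, SE 0.18, adjusted p = 0.0312 in limma). RALA (-0.25), EXOC2 (-0.29), RGL2 (0.13) and RALGAPB (0.13) were not called. Without the oligonucleotide as a block RALB was not called (adjusted p = 0.0684 in limma), and without a filter on low values RALGAPA1 was not (adjusted p = 0.0614 in limma).

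Of the 9 members, 3 were thus called higher, RGL1 among them, and 2 lower in PSN-1, beside 29.2% of 12423 genes called higher and 27.3% lower. The members' share of 55.6% was close to the 56.4% of all genes, so the difference between the lines is not particular to them. The difference for RALB was similar with each oligonucleotide, -1.08 between the mimic libraries and -0.96 between the scramble libraries. That for RALGAPA1 was -0.38 between the mimic libraries and -0.93 between the scramble libraries. The libraries of each line carry library names of their own number series, so the line and the library series cannot be told apart.

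**Figure D4:**
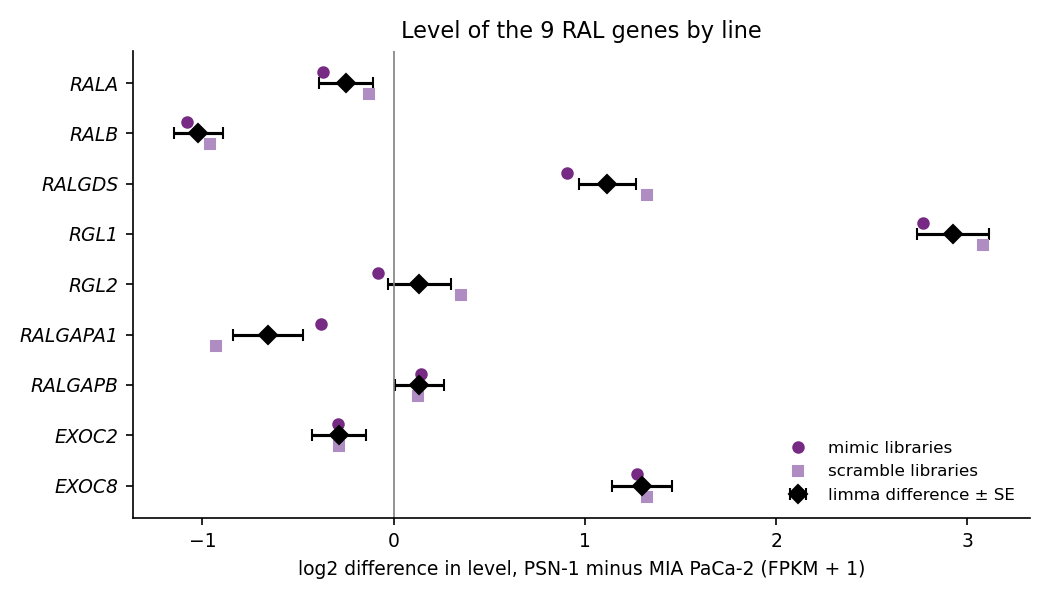
Log2 difference in level of FPKM + 1, PSN-1 minus MIA PaCa-2, for each of the 9 RAL genes: circles between the mimic libraries, squares between the scramble libraries, and diamonds with bars the limma difference with its SE. RGL1, EXOC8 and RALGDS lie to the right of 0 and RALB and RALGAPA1 to the left with both oligonucleotides, while RGL2 lies on both sides of 0.

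The rest of the RAL pathway was described with a list of 31 further genes. With the mimic, 1 of 30 measured genes was higher and 1 lower past 1.5-fold in PSN-1 (3.17% and 3.87% of all genes), and 1 of 27 was higher and 1 lower in MIA PaCa-2 (5.43% and 4.06%). The list's median change was 0.015 in PSN-1 and 0.057 in MIA PaCa-2. The higher gene in PSN-1 was PPP2R1B, a scaffold subunit of the phosphatase PP2A, which acts on RALA, at 22.5 FPKM with the mimic and 12.3 FPKM with the scramble (log2 change 0.82). In MIA PaCa-2 PPP2R1B was at 21.4 FPKM with the mimic and 14.6 FPKM with the scramble (0.52, adjusted p over both lines 0.267 in limma).

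The remaining genes past 1.5-fold were RAS genes, upstream of the exchange factors. HRAS was at 19.4 FPKM with the mimic and 39.5 FPKM with the scramble in PSN-1, and at 21.99 FPKM with the mimic and 40.1 FPKM with the scramble in MIA PaCa-2 (log2 changes -0.99 and -0.84, adjusted p = 0.135 in limma). NRAS had log2 changes of 0.54 in PSN-1 and 0.68 in MIA PaCa-2, past 1.5-fold only in MIA PaCa-2. Neither HRAS nor NRAS had a 3′ UTR site.

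Of the other 7 exocyst subunits, 4 were higher and 3 lower with the mimic in each line and none passed 1.5-fold. Their changes ran from -0.087 (EXOC6B) to 0.32 (EXOC1) in PSN-1 and from -0.095 (EXOC4) to 0.38 (EXOC6) in MIA PaCa-2. EXOC3 and EXOC6B each hold the 8-base match GACGGATA in the coding sequence, shown here because they are the 8-base matches found among the members and the wider list, with the match in capitals.
EXOC3 coding sequence: ccggtttcggggaagacgtgGACGGATAct
EXOC6B coding sequence: cagaaactcaaaaatcaagtGACGGATAct
These matches lie on chromosome 5 from 465736 to 465743 (plus strand) and on chromosome 2 from 72733103 to 72733110 (minus strand, both GRCh38). The log2 changes were -0.079 in PSN-1 and 0.099 in MIA PaCa-2 for EXOC3, and -0.087 and -0.067 for EXOC6B. Coding sequences of FLNA and REPS2 hold 7-base matches (GACGGAT and ACGGATA), with log2 changes of -0.19 in PSN-1 and -0.12 in MIA PaCa-2 for FLNA and -0.15 in PSN-1 for REPS2, which was under 1 FPKM in MIA PaCa-2. None of these changes passed 1.5-fold, and an effect of coding matches was not tested. Few genes passed it at all (3.87% lower and 3.17% higher in PSN-1, 4.06% and 5.43% in MIA PaCa-2). Coding sequences were searched only in the transcript with the longest 3′ UTR, and the share of all genes with a coding match was not counted. The 6-base ACGGAT was present in the coding sequence of RGL1, RGL2 and RALGAPB among the members.

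Among the other effectors of RAL and their partners, REPS1, which carries an EH domain and takes part in endocytosis, had the highest change in both lines (0.56 and 0.25). FLNA, which crosslinks actin, had the lowest in PSN-1 (-0.19). Of the other exchange factors RGL3 was lowest in both lines (-0.32 and -0.24), while RALGPS2 was highest in PSN-1 (-0.030) and RGL4 in MIA PaCa-2 (0.39). The other alpha subunit RALGAPA2 had log2 changes of 0.084 and 0.17. Among the modifiers of RAL proteins, ICMT, which methylates prenylated proteins, was lowest in PSN-1 (-0.26), and AURKA, a mitotic kinase that phosphorylates RALA, was at -0.20 in PSN-1 and lowest in MIA PaCa-2 (-0.51).

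**Figure D5:**
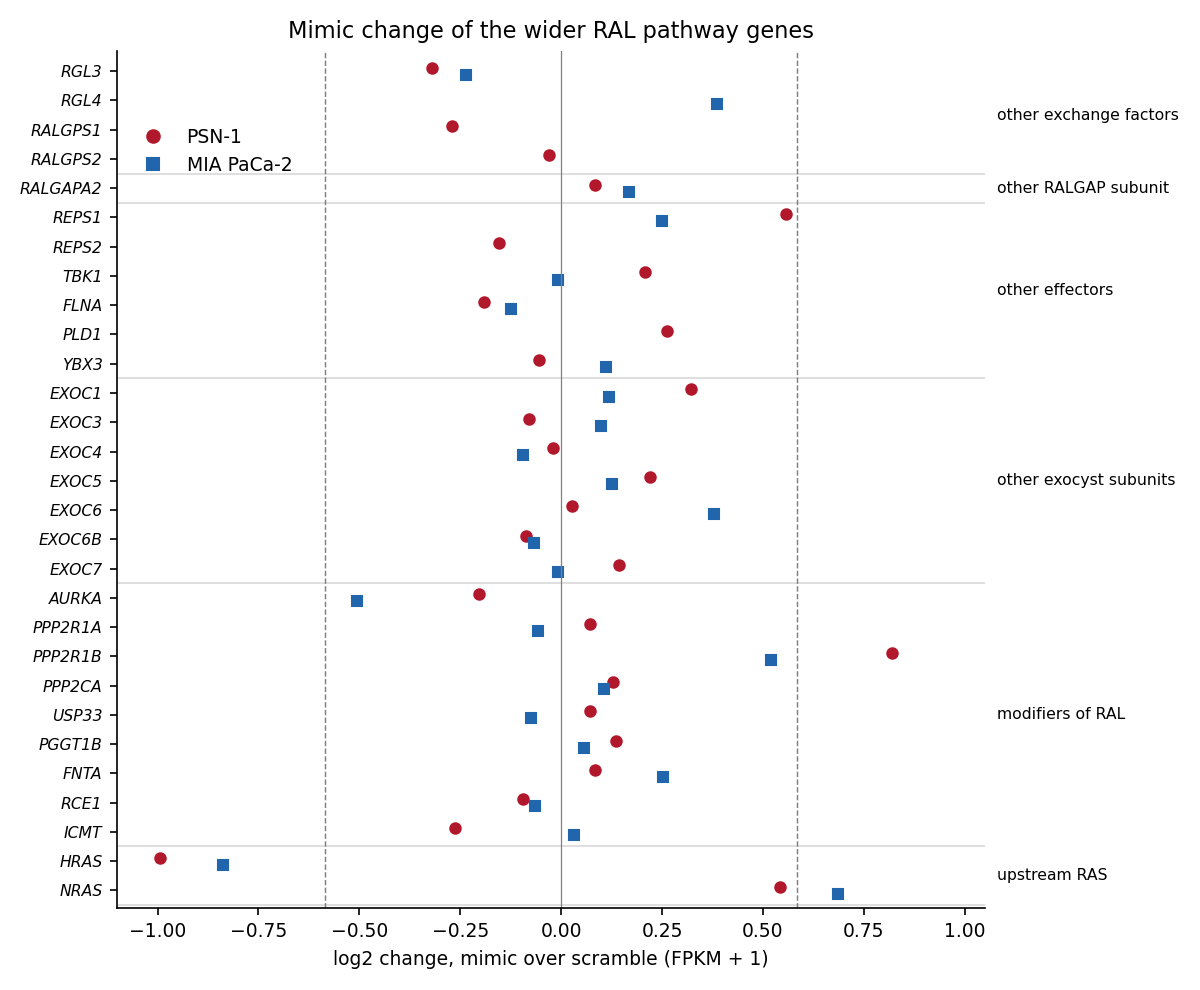
Log2 change of FPKM + 1, mimic over scramble, for 29 of the 31 further genes of the RAL pathway, grouped by role, in PSN-1 (circles) and MIA PaCa-2 (squares), with dashed lines at 1.5-fold; a gene under 1 FPKM in a line has no mark for it. HRAS lies past the lower line in both lines of cells, PPP2R1B past the upper line in PSN-1 and NRAS in MIA PaCa-2.

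By line, 9 of 30 tested genes of this list were called higher and 7 lower in PSN-1 by limma (53.3%, against 56.4% of all genes). Of those called higher, PLD1, RALGPS2 and REPS2 were under 1 FPKM in MIA PaCa-2 and passed the filter only through PSN-1. PLD1, a phospholipase regulated by RAL, had a mean of 14.4 FPKM in PSN-1, whereas the MIA PaCa-2 tables list it at 0 (mimic) and 0.0138 FPKM (scramble). PLD1, RALGPS2 and RGL3 were picked here after their values were seen. RALGPS2, an exchange factor that does not need RAS, had a mean of 14.2 FPKM in PSN-1 and 0.158 FPKM in MIA PaCa-2. RGL3 went the other way, at 4.91 FPKM in PSN-1 and 9.63 FPKM in MIA PaCa-2 (log2 difference -0.85, adjusted p = 0.00744 in limma).

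RALB was also set among the genes that carry a 3′ UTR match. Of 239 such genes measured in both lines, RALB ranked 9 from the lowest change in PSN-1 and 15 in MIA PaCa-2. The median change of these genes was -0.13 in PSN-1 and -0.12 in MIA PaCa-2, beside -0.012 and 0.021 in the 9553 genes with a 3′ UTR and no match. The cause of this difference was not tested. The genes most like RALB in their mimic changes and line difference, among 7548 protein-coding genes of at least 5 FPKM in both lines, were ANAPC15, NPAS2, BYSL, CHAF1B and THAP7, with root mean square log2 differences from RALB of 0.134 to 0.197 over 3 values. None of those 5 has a 3′ UTR match, which only 2.11% of protein-coding genes have, so its absence in 5 genes is not informative. For RALA they included EIF2S2, SEZ6L2, NFYB and ZCCHC9, at 0.00677 to 0.0235.

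As facts of all 4 libraries, 1 FPKM was estimated from the smallest steps among low values to stand for 12.6 to 15.9 fragments per kb of transcript, and 15699 to 17294 symbols were above 0. MIR4800, the precursor gene, was listed at 0 in every library, and mature microRNA is not captured by this library type, so the transfection has no direct check here. Of the epithelial markers, KRT8, KRT18 and KRT19 were at 78.2 FPKM or more in every library, and CDH1 was at most 1.51 FPKM anywhere. EPCAM was at least 24.1 FPKM in PSN-1 and at most 0.139 FPKM in MIA PaCa-2. The mesenchymal markers were mixed, with VIM at 1144 FPKM or more, ZEB1 at 19.8 to 30.5 FPKM and CDH2 at most 0.0514 FPKM. Of the 3 leukocyte markers CD68 alone passed 1 FPKM, with sums of 35.7 to 39.1 FPKM in PSN-1 and 20.1 to 34.6 FPKM in MIA PaCa-2, and CD3E was listed at 0. Endothelial markers summed to at most 1.74 FPKM and fibroblast markers to 30.1 to 77.0 FPKM, mostly COL1A1 and PDGFRB in PSN-1 and COL1A2 in MIA PaCa-2.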

How the data were processed

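Each library's table lists one FPKM value per gene symbol, per the file headers, as deposited by the authors. Tools credited in the submitters' processing notes are TopHat2 2.1.1 and Cuffdiff 2.2.1, with build hg19; what each did, the gene annotation, strandedness of counting and scaling are not given in these sources. The labels' protocols name a stranded TruSeq mRNA kit. Changes are log2((mimic FPKM + 1)/(scramble FPKM + 1)) where the line's mean reached 1 FPKM, and 1.5-fold serves as a threshold without a test. Both limma 3.58.1 fits (R 4.3.3, eBayes with trend, two-sided, Benjamini-Hochberg over all genes) used all 4 libraries. They were also run on simulated data with noise of the same size for every gene, which cannot test them on variation between cultures. Fragment numbers were estimated from steps among single-transcript genes under 0.3 FPKM, with fragments of 200 bases and each member's shortest principal transcript assumed, so counting errors are estimates. Sequences and coordinates come from RefSeq (miRNA) and GENCODE 29 on GRCh38, joined to the hg19 files by symbol only. All 9 members are named, and wider-list genes past 1.5-fold, at either end of their group or under the filter in both lines, with the 5 genes most like RALB and RALA. A few genes that this rule names are not reported here. Members and lists were chosen with earlier results of these data known. Alternatives covered pseudocount, filter, scaling, trend, block and fold. Python 3.11.15, pandas 2.3.3 and matplotlib 3.10.9 were used.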

Additional observations from a re-analysis of the deposited data

Results flagged for a closer look

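RALA, RGL2 and RALGAPA1 had log2 changes of opposite sign in the 2 lines, as did 44.2% of 10678 genes measured in both, and with 1 pair of libraries per line the difference was not tested. On log2(FPKM + 1), the PSN-1 minus MIA PaCa-2 change was -0.24 for RALA, -0.43 for RGL2 and 0.55 for RALGAPA1. Counting SEs of these differences, taken from the plain ratios, were 0.10 for RALA, 0.11 for RGL2 and 0.078 for RALGAPA1.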

How the results depend on the processing

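RALB kept its direction in all settings run, with log2 changes of -0.88 to -0.83 in PSN-1, -0.77 to -0.71 in MIA PaCa-2 and -0.81 to -0.77 in limma over both lines (adjusted p 0.119 to 1.0 in limma). The RALB to RALA difference ran from -0.85 to -0.81 in PSN-1 and from -0.96 to -0.93 in MIA PaCa-2. At 2-fold in place of 1.5-fold, 0 members were lower in PSN-1 and 0 in MIA PaCa-2, with 95 genes lower and 104 higher in PSN-1 and 93 lower and 151 higher in MIA PaCa-2. The counts of all genes past 1.5-fold, 473 lower and 388 higher in PSN-1 and 466 lower and 624 higher in MIA PaCa-2, moved with other settings. In PSN-1 they were 737 lower and 593 higher with a pseudocount of 0.1, and 757 and 593 with none. They were 311 and 226 with a filter of 5 FPKM, and 703 lower and 619 higher with TPM scaling. In MIA PaCa-2, 292 were lower with the filter of 5 FPKM, and 758 lower and 684 higher with TPM scaling. Limma's calls over both lines, 1 lower and 6 higher, were 10 and 13 with TPM scaling, 0 and 0 without the filter or without cell line as a block, 0 lower without the trend, and 2 lower with the filter of 5 FPKM. No setting called a member there. No paired analysis by replicate number was possible because the labels carry no replicate numbers. Between the lines, RALGDS was at 0.91 between mimic and 1.33 between scramble libraries, and RGL2 at -0.082 and 0.35. The cause of these shifts was not tested. With 1 library per group, depth does not stand in for replicate cultures.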
